A study of Mus musculus with 16 samples.

Results

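The 6 acyl-CoA thioesterase genes Acot1, Acot2, Acot7, Acot8, Acot9 and Acot13 were followed in the left ventricle of mice, among 18193 genes that had a probe set of their own. A probe set is a group of short array probes that together read a transcript. Probe sets were assigned to members by gene symbol from the array annotation. They had 9 probe sets, of which 7 carried the symbol of 1 member alone and 2 were shared, one between Acot1 and Acot2 and the other between Acot9 and its near-copy Acot10. None of the 9 was among the dimmest 40% of probe sets by mean log2 signal, although the Acot1 probe set fell into that range on some knockout arrays.

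The study set PPARalpha-/- mice (KO) against wild-type mice (WT), 28 days after transverse aortic constriction (TAC), which narrows the aorta and loads the left ventricle, or after a sham operation. The groups were KO TAC, KO sham, WT TAC and WT sham, with 4 arrays in each of the 4 groups, 16 in all. The labels give the KO genotype as PPARalpha-/- and name no tissue-specific deletion. They give no age, sex or strain and do not say whether an array was 1 animal, so p-values here speak of the spread between arrays, which can be technical. The question was which cardiac transcripts differ with PPARalpha at baseline and under sustained load.

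Acyl-CoA thioesterases split activated fatty acids, the acyl-CoA esters, into free fatty acid and coenzyme A, the step opposite to the one that acyl-CoA synthetases carry out. Each compartment of the cell has its own enzymes: Acot1 is cytosolic, Acot2 sits in the mitochondrial matrix, Acot7 is a mainly cytosolic enzyme for long acyl chains best known from brain, Acot8 is peroxisomal, Acot9 is mitochondrial, and Acot13, also called Them2, is a small hotdog-fold enzyme found at mitochondria. Acot1 and Acot2 are close paralogs of another fold and lie in a tandem cluster, and both are known in mouse liver and heart as genes that PPARalpha, a receptor for fatty acids, switches on.

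In RefSeq's gene order on chromosome 12 the cluster ran Acot2, Acot1, Acot4, Acot3, Acot5, Acot6. The promoters of Acot1 and Acot2 are shown because these were the members that differed between genotypes. Both are RefSeq sequences of build GRCm38.p6, from 250 bases before to 50 bases after the transcript start, on the plus strand, for Acot1 at chr12:84009252-84009551 and for Acot2 at chr12:83987611-83987910. Capitals mark the letters CCAAT, a common promoter motif, on either strand.
Acot1: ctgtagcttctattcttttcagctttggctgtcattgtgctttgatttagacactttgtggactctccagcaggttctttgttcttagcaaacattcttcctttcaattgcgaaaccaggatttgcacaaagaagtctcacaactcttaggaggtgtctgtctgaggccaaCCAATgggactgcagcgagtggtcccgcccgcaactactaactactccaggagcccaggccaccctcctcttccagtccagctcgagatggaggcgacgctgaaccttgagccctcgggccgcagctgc
Acot2: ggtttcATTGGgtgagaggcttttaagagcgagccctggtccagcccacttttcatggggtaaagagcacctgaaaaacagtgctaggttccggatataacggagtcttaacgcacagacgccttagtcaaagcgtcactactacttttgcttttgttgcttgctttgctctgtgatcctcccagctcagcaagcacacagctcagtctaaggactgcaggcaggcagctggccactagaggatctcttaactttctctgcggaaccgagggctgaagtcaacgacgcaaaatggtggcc
Aligned end to end, the 2 windows were identical at 45.7% of positions, within the 42.6% to 47.6% found for all 10 pairs among the 5 member promoters in the table. The motif began at -79 on the plus strand in Acot1 and at -244 on the minus strand in Acot2. It is common, and 37.92% of 27025 mouse promoters of this length held it on 1 strand or the other. The PPAR element in its exact textbook form, AGGTCANAGGTCA, was in none of the 5 member windows and in 0.04% of all promoters. Its repeated part, AGGTCA, was also in none of the 5, against 16.04% of all promoters. Only these letters in these windows were searched, and neither match nor absence says anything about binding.

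The arrays shared 1 trimmed mean, while their medians and spike-in signal differed. The trimmed mean signal was 499.8 on all 16, medians ran from 108.3 to 163, and the mean correlation of an array with others of its group was 0.877 to 0.926. The mean log2 signal of 9 spike-in probe sets ran from 12.002 in KO TAC replicate 3 to 13.04 in WT TAC replicate 3. It was 12.002 to 12.682 in KO TAC and 12.617 to 13.044 in WT TAC, so a correction for it is not independent of that comparison. Ppara itself lay between 388.1 and 524.7 in KO TAC and between 524.2 and 727.1 in KO sham, against 1384.9 to 2171.4 in WT TAC and 1546 to 2307.6 in WT sham, so every KO array was below every WT array (genotype difference in log2 signal -1.81 ± 0.13, limma adjusted p = 6.85e-06). Which exon this Ppara probe set reads was not examined. All 8 cardiomyocyte markers were above the dimmest 40%, and their summed signal was 402198 to 508145 in KO TAC and 479711 to 563671 in KO sham, against 530414 to 712502 in WT TAC and 436637 to 513574 in WT sham. The cardiomyocyte sum was lower in KO TAC than in WT TAC, with no overlap. In sham hearts the order was the other way, with a median sum of 544612 in KO sham and 479807 in WT sham, and the ranges overlapped. The summed signal of 8 of 8 macrophage markers was 19445 to 23841 in KO TAC and 18050 to 19545 in KO sham, against 13864 to 17262 in WT TAC and 13952 to 16411 in WT sham, so every KO array was above every WT array. That of 7 of 7 fibroblast markers was 58522 to 65824 in KO TAC and 39803 to 46544 in KO sham, against 41572 to 54050 in WT TAC and 40604 to 43881 in WT sham, with no overlap between the TAC groups. No marker on either list was among the dimmest 40%, and the part of these cell types in the member differences was not tested. Nor can fewer cells of a type and less RNA per cell be told apart in such tissue samples.

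Acot1 and Acot2 transcripts were lower in KO hearts, whereas no difference between genotypes was called for Acot7, Acot8, Acot9 or Acot13. Averaged over both operations, 3 of the 9 probe sets fell and 0 rose in KO at a limma adjusted p under 0.05 over 45037 probe sets, where 0.295% of all probe sets fell and 0.12% rose. All 3 belonged to Acot1, Acot2 or the set that both share. The median log2 fold change of the 9 was -0.16, beside -0.01 for all probe sets.

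Acot1, the cytosolic enzyme, had signals of 83.6, 19, 14.4 and 6.3 in KO TAC and 109.6, 63.4, 163.4 and 42.7 in KO sham, against 249.5, 289.8, 228.4 and 416.4 in WT TAC and 323.2, 471.2, 620 and 397.7 in WT sham. No KO array reached the lowest WT array. Averaged over operations the log2 fold change was -3.03 ± 0.39 (SE, 8 KO and 8 WT arrays), which is 8.16-fold lower, with a 95% interval of -3.86 to -2.19 and a limma adjusted p of 0.0017. One KO TAC value lay under the floor of 11.9 at which values were held before log2 was taken, and 3 of 4 KO TAC arrays were below 69.5, the signal that bounds the dimmest 40% of probe sets. The size of the fall in TAC hearts moved with the floor. It was -3.66 ± 0.55 (12.6-fold, adjusted p = 0.0107) as fitted and -2.63 with a floor of 38.4, while the genotype average was -2.51 with that floor.

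Acot2, the mitochondrial enzyme, was read by 2 probe sets of its own, called here the bright and the second one by their mean signal. The bright one had signals of 2085.9, 2061.3, 642.9 and 1723.2 in KO TAC and 2600.1, 3726.2, 3030.4 and 2871.5 in KO sham, against 6725.1, 7441, 6528.6 and 7699 in WT TAC and 6127.3, 6046.4, 6545.3 and 6603.4 in WT sham. Every KO array was below every WT array, and KO TAC replicate 3 was far below the other KO TAC arrays. The spread differed too: the coefficient of variation was 41.6% in KO TAC and 15.7% in KO sham, against 7.89% in WT TAC and 4.49% in WT sham. Averaged over operations, Acot2 was 3.16-fold lower in KO (log2 fold change -1.66 ± 0.21, 95% interval -2.11 to -1.21, limma adjusted p = 0.0015).

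The second Acot2 probe set gave a difference of the same sign that did not pass the test. Its signals were 159.4, 170.3, 89.6 and 113.2 in KO TAC and 150, 126.2, 113.3 and 137.8 in KO sham, against 191.6, 293.4, 122.3 and 222.4 in WT TAC and 252.8, 156.2, 228.2 and 191.3 in WT sham. The sham groups did not overlap, but WT TAC replicate 3 fell among the KO arrays, and WT sham replicate 2 was below KO TAC replicates 1 and 2. The genotype average was -0.63 ± 0.19 (limma adjusted p = 0.314, unadjusted p = 0.00584), with a 95% interval of -1.04 to -0.21 that did not overlap the interval of the bright set. What the 2 sets read differently was not tested, and neither carries the symbol of another gene.

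The probe set shared by Acot1 and Acot2, whose signal cannot be assigned to either gene, had the smallest p of the 9 in the genotype average. It read 276.6, 120.6, 168.7 and 222.4 in KO TAC and 348.4, 258.3, 238.8 and 291.8 in KO sham, against 763, 667.3, 486.7 and 924.1 in WT TAC and 875, 1127.6, 1057.5 and 1060.9 in WT sham. The highest KO array was below the lowest WT array. The genotype average was 3.66-fold lower in KO (-1.87 ± 0.18, limma adjusted p = 0.000124).

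**Figure D1:**
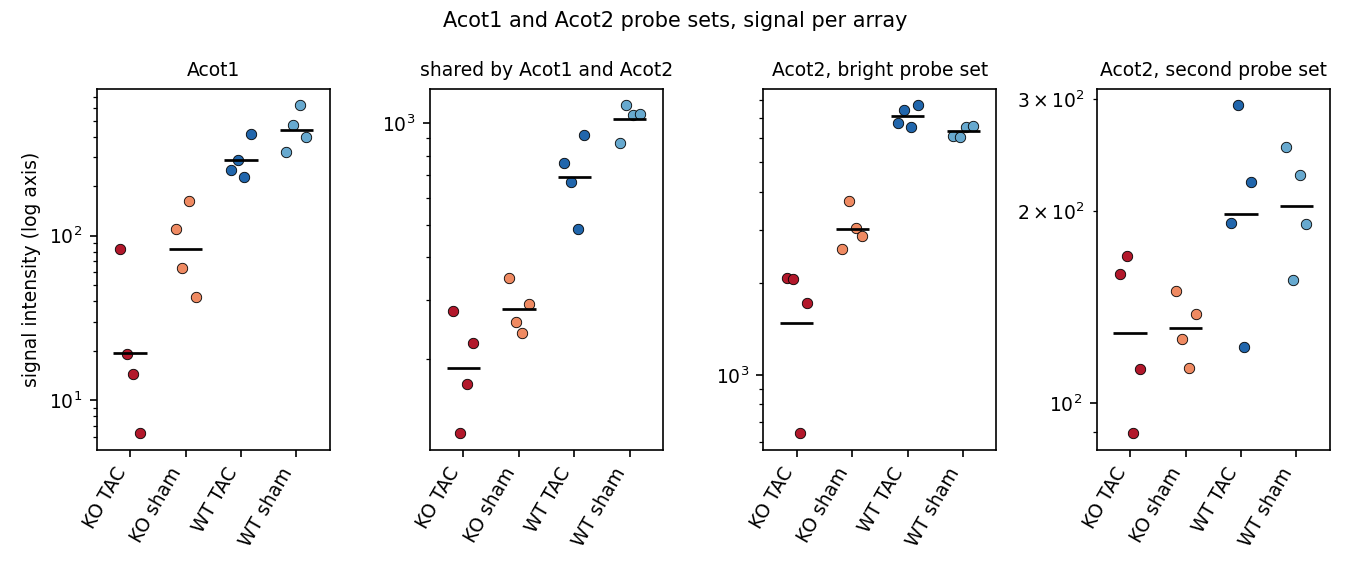
Deposited signal intensity of the 4 probe sets of Acot1 and Acot2 on log axes, 1 point per array and 4 arrays per group, with a bar at the geometric mean. In Acot1, the shared set and the bright Acot2 set every KO point lies below every WT point, and the KO TAC points of Acot1 reach down to 6.3.

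Within sham hearts, 1 of the 9 probe sets fell in KO and 0 rose, against 0.0888% and 0.0222% of all probe sets. It was the set shared by Acot1 and Acot2 (3.65-fold lower, -1.87 ± 0.25, limma adjusted p = 0.00726). Acot1 alone gave -2.40 ± 0.55 (adjusted p = 0.215) and passed with the floor of 38.4 (adjusted p = 0.0222), and the bright Acot2 set gave -1.06 ± 0.30 (adjusted p = 0.43), so neither was called as fitted. KO sham and WT sham did not overlap in 4 of the 9 sets, all of them of Acot1 or Acot2, where 4.08% of all probe sets did not overlap. For each of these, the exact two-sided permutation test gave the smallest p that 4 arrays against 4 allow, 0.0286, or 0.0858 after Benjamini-Hochberg adjustment over the 36 such tests on members.

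Between the TAC groups, 3 of the 9 probe sets fell in KO and 0 rose, against 0.175% and 0.0777% of all probe sets. These were Acot1, the shared set (3.68-fold lower, -1.88 ± 0.25, limma adjusted p = 0.0048) and the bright Acot2 set (4.79-fold lower, -2.26 ± 0.30, adjusted p = 0.0038). When only the 8 TAC arrays were fitted, the fold changes were the same, but the adjusted p values became 0.15 for Acot1, 0.151 for the shared set and 0.158 for Acot2, and none was called. With the spike-in mean as a covariate the log2 fold changes were -3.49 ± 0.76 for Acot1, -1.62 ± 0.33 for the shared set and -1.86 ± 0.38 for Acot2, and none was called either. Without the 3 arrays of most extreme spike-in signal, all TAC arrays, Acot1 gave -3.30 ± 0.75 (adjusted p = 0.239) and was not called. The shared set (-1.65 ± 0.22, adjusted p = 0.0175) and the bright Acot2 set (-1.94 ± 0.19, adjusted p = 0.00349) were still called there. Here too 4 sets did not overlap between the groups, beside 5.89% of all probe sets, and the fourth was Acot13.

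Neither genotype showed a called response of any member to TAC. In WT hearts the fit called 0 of the 9, and 0% of all probe sets in either direction, although 1 member set had an unadjusted p under 0.05, as did 2721 of all probe sets (6.04%). In KO hearts 0 of the 9 were called, where 0.0533% of all probe sets fell and 0.133% rose, and 5 had an unadjusted p under 0.05, as did 8.95% of all probe sets. Averaged over genotypes 0 of the 9 were called, against 0.0488% of all probe sets that fell and 0.109% that rose, with 3 at an unadjusted p under 0.05, beside 7.86% of all probe sets.

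The bright Acot2 set gave -1.04 ± 0.30 for KO TAC over KO sham (limma adjusted p = 0.242) and 0.16 ± 0.30 for WT TAC over WT sham (adjusted p = 0.966). All 4 KO TAC arrays were below all 4 KO sham arrays, while the WT TAC and WT sham arrays overlapped. The difference between these responses, tested as the interaction of genotype and operation, was -1.20 ± 0.42 (unadjusted p = 0.013, adjusted p = 0.626). No member passed that test, which called 0.00222% of all probe sets lower and 0% higher. Much of the size, and of the spread, came from 1 array. Without KO TAC replicate 3 the KO response was -0.64 ± 0.15 (limma adjusted p = 0.223) and the interaction -0.80 ± 0.21 (adjusted p = 0.633). KO TAC replicate 3 also had the lowest spike-in signal, and with the spike-in mean as a covariate the interaction was -0.62 ± 0.54.

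For the set shared by Acot1 and Acot2 the responses were nearly equal in the 2 genotypes, -0.58 ± 0.25 in KO and -0.57 ± 0.25 in WT, and the interaction was -0.01 ± 0.36 with a 95% interval of -0.78 to 0.76. Acot1 alone gave -1.87 ± 0.55 in KO (limma adjusted p = 0.262) and -0.61 ± 0.55 in WT (adjusted p = 0.914). Its KO value depended on 1 array and on the floor. Without KO TAC replicate 1, its highest KO TAC array, it was -2.49 with an adjusted p of 0.0356, and with the floor of 38.4 it was -0.84.

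Pairs of probe sets of Acot1, Acot2 and Acot9 were also set against each other within each array. The log2 signal of the bright Acot2 set minus that of the shared set was 3.36 ± 0.32 in WT TAC and 2.62 ± 0.16 in WT sham (SD, n = 4 each), a difference of 0.73 with no overlap (exact permutation p = 0.0286, 0.114 after adjustment over 16 such tests). Of the same quantity, KO TAC had 2.97 ± 0.89 and KO sham 3.43 ± 0.42, a difference of -0.46 (exact permutation p = 0.457, adjusted 0.486, n = 4 each). KO sham had 3.43 ± 0.42 and WT sham 2.62 ± 0.16 (exact permutation p = 0.0286, adjusted 0.114, n = 4 each). KO TAC and WT TAC overlapped in it, with a difference of -0.38 (exact permutation p = 0.486). The bright Acot2 set minus Acot1 differed by 1.34 between KO sham and WT sham and by 1.4 between KO TAC and WT TAC. For TAC over sham it differed by 0.83 in KO and by 0.78 in WT. The groups overlapped each time (exact permutation p from 0.0571 to 0.314). The bright minus the second Acot2 set was 3.52 ± 0.47 in KO TAC and 5.16 ± 0.44 in WT TAC (exact permutation p = 0.0286, adjusted 0.114, n = 4 each), and KO TAC differed from KO sham, at 4.53 ± 0.35, by -1.01 with the same exact permutation p values. In the other tests of this pair, and in all tests of Acot9 minus the set shared with Acot10, the groups overlapped (exact permutation p from 0.143 to 0.486). None of the 16 passed after adjustment, and these tests were added after the values had been seen. With 4 arrays against 4 the smallest possible exact p is 0.0286, so a test could pass only if many of the 16 reached it. Failure to pass therefore says little about these pairs.

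**Figure D2:**
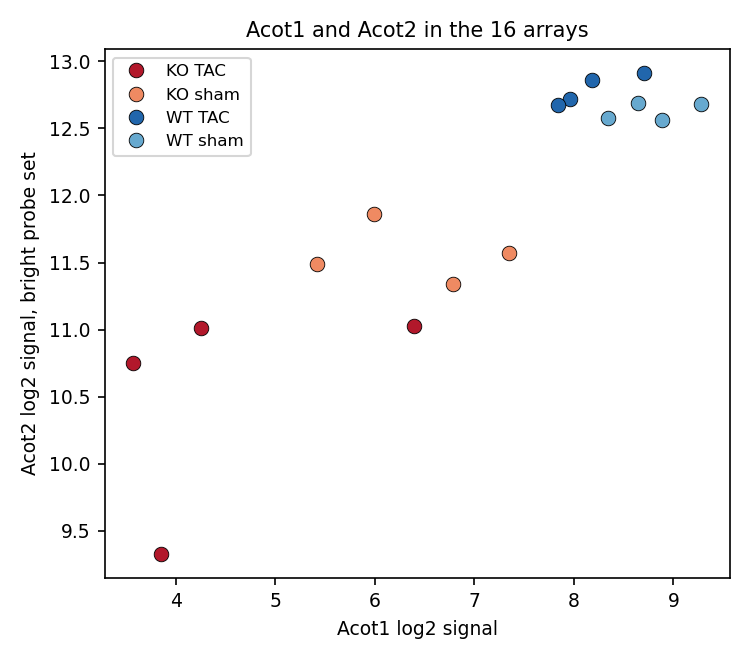
Log2 signal of the bright Acot2 probe set against that of the Acot1 probe set, 1 point per array, with values held at the floor of 11.9. KO arrays lie to the lower left of all WT arrays, and KO TAC replicate 3 is the lowest point for Acot2.

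Over the 16 arrays the bright Acot2 set and Acot1 correlated at r = 0.89, and at r = 0.34 once group means were removed. For Acot1 and the shared set the values were 0.91 and 0.42, and for the 2 Acot2 sets 0.73 and 0.53. These are descriptions, and the points share the arrays' scaling and the groups. Likeness was thus weaker among arrays of 1 group than across groups for these pairs.

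Acot7 averaged 2775 ± 152 in KO TAC and 3759 ± 502 in KO sham, against 2954 ± 562 in WT TAC and 3355 ± 155 in WT sham (SD, n = 4 each). The KO TAC arrays read 2752.1, 2890.7, 2889.6 and 2569, all below the KO sham arrays at 3092.8, 3778.5, 3858.3 and 4307.5. In WT the 2 operations overlapped, because WT TAC replicate 4 read 3740.4, above all WT sham arrays. The response to TAC was -0.43 ± 0.15 in KO (limma adjusted p = 0.389) and -0.20 ± 0.15 in WT (adjusted p = 0.896), with -0.32 ± 0.11 for both together (adjusted p = 0.437, unadjusted p = 0.0106), and none passed. Between genotypes Acot7 differed by 0.04 ± 0.11, with a 95% interval of -0.19 to 0.27.

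Acot8, the peroxisomal enzyme, had overlapping signals in all 4 groups, at 580.2, 413.2, 399.9 and 474.5 in KO TAC and 326.6, 513.4, 350 and 329.9 in KO sham, against 445.6, 406.1, 375.4 and 488 in WT TAC and 338.2, 482.4, 390.8 and 355.9 in WT sham. In each sham group replicate 2 was the highest. The genotype average was 0.03 ± 0.13 (95% interval -0.26 to 0.31) and the TAC average 0.22 ± 0.13 (limma adjusted p = 0.742).

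Acot9, the second mitochondrial member, was higher in every KO TAC array, at 1960.5, 1998.9, 2180.7 and 1987.4, than in every KO sham array, at 1749.4, 1710.2, 1570.1 and 1487. WT TAC read 2147.8, 1901.9, 1602.5 and 1772.5 and WT sham 1726.5, 1832.6, 1972.1 and 1636.3, which overlapped. The KO response was 0.32 ± 0.13 and did not pass (limma adjusted p = 0.477), and the WT response was 0.05 ± 0.13. The set shared with Acot10, an intronless copy of Acot9 in the mouse, showed the same order: 1088.7, 1295.9, 1260.9 and 1146.6 in KO TAC, all above 935, 1032.8, 1034.1 and 1004.1 in KO sham (0.26 ± 0.14, adjusted p = 0.631). The 2 sets correlated at r = 0.78 over the 16 arrays and at 0.70 within groups. Genotype averages were 0.00 ± 0.09 for Acot9 and 0.08 ± 0.10 for the shared set with a 95% interval of -0.19 to 0.19 for Acot9. The fibroblast marker sum was also higher in every KO TAC array than in every KO sham array, although 1 of its 7 markers, Tcf21, went the other way. The macrophage marker sums of these groups overlapped, at 19445 to 23841 in KO TAC and 18050 to 19545 in KO sham. The part of either cell type in the Acot9 values was not tested.

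Acot13 varied little within the KO groups, with a coefficient of variation of 2.47% in KO TAC and 3.54% in KO sham, against 8.4% in WT TAC and 7.9% in WT sham. Its signals were 21307.5, 20812.1, 20133.7 and 21117.4 in KO TAC and 21971.4, 21508.4, 20354.6 and 20656.8 in KO sham, against 23606.3, 23294.4, 27883.9 and 24880.9 in WT TAC and 20432.4, 23971, 20812 and 23201.9 in WT sham. All KO TAC arrays were below all WT TAC arrays, while the sham groups overlapped. KO TAC differed from WT TAC by -0.25 ± 0.11, which did not pass (1.19-fold lower, limma adjusted p = 0.463), and the genotype average was -0.16 ± 0.08 (adjusted p = 0.634). The highest array, WT TAC replicate 3, also had the highest spike-in signal, and Acot13 correlated with the spike-in mean at r = 0.55 over the 16 arrays and 0.30 within groups. The difference between KO TAC and WT TAC was -0.20 without that array, -0.20 ± 0.15 with the spike-in mean as a covariate and -0.06 ± 0.14 with each array centred on its median, the smallest of 15 alternatives that ran from -0.25 to -0.06.

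Between KO TAC and KO sham, 4 of the 9 probe sets did not overlap, namely Acot7 and the bright Acot2 set below, and both Acot9 sets above, where 6.25% of all probe sets did not overlap. Between WT TAC and WT sham it was 0 of the 9, beside 3.47% of all probe sets. Each of the 4 had an exact two-sided permutation p of 0.0286, or 0.0858 after adjustment.

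**Figure D3:**
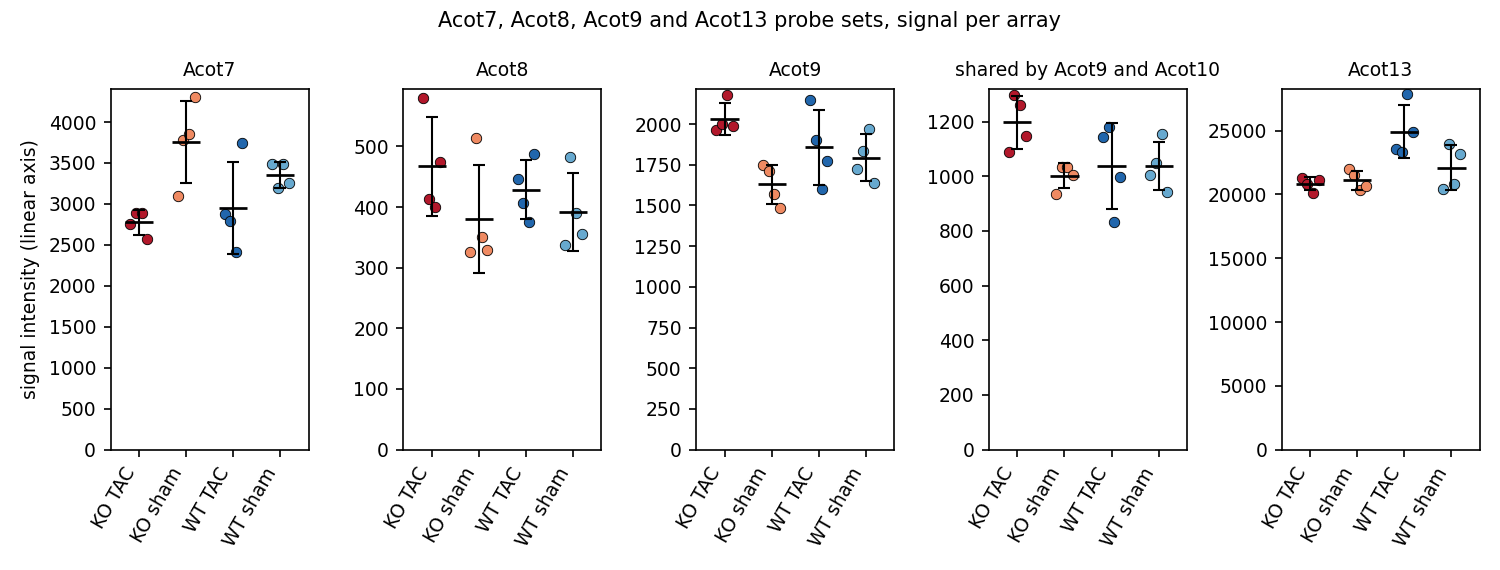
Deposited signal intensity of the probe sets of Acot7, Acot8, Acot9 and Acot13 on linear axes from 0, 1 point per array, with the mean and SD of the 4 arrays per group. The 4 KO TAC points lie below the KO sham points for Acot7 and above them for both Acot9 sets, and Acot13 stays between 20133.7 and 27883.9.

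**Figure D4:**
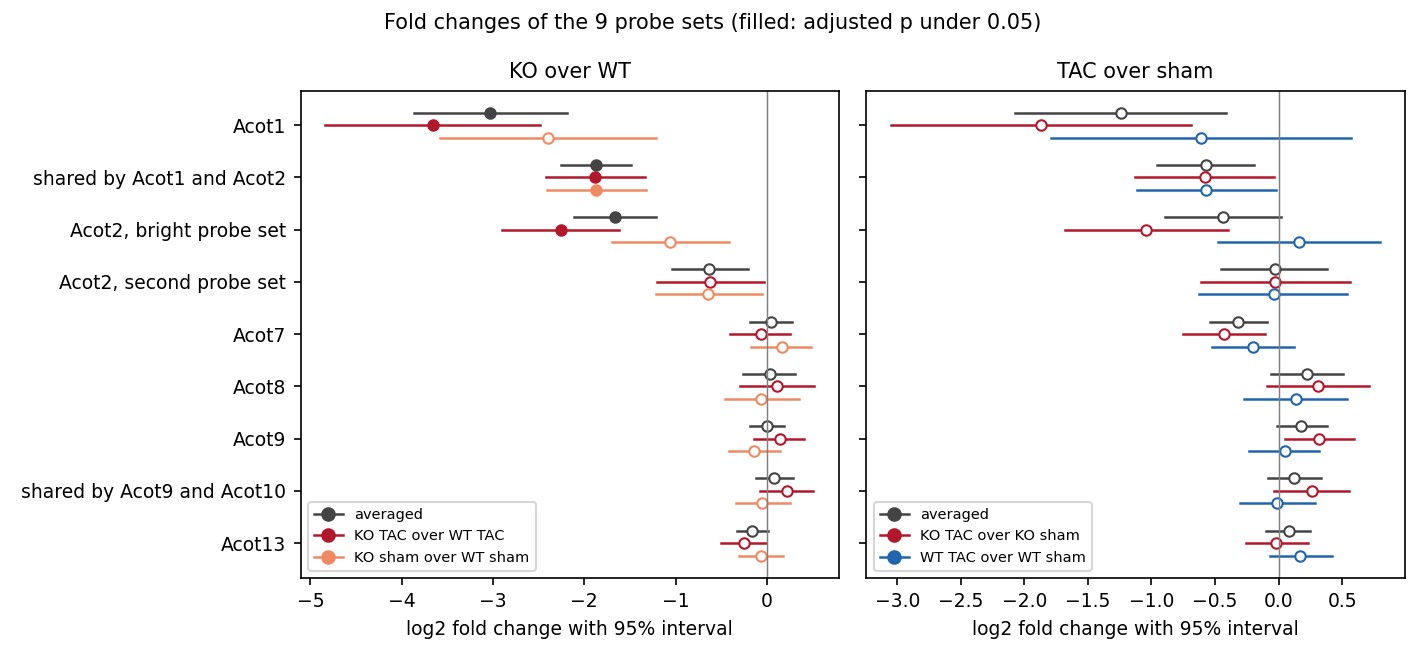
Log2 fold changes with 95% intervals of the 9 probe sets, KO over WT on the left and TAC over sham on the right, each averaged and within 1 level of the other factor. Filled points passed an adjusted p of 0.05 and belong to Acot1, Acot2 and their shared set in KO over WT, and no point is filled for TAC over sham.

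No other thioesterase gene passed the test between genotypes. Of 14 listed, 13 had a probe set of their own, 5 of them among the dimmest 40%, and 0 were called in any of the 7 comparisons. Their median genotype difference was -0.02. Within the chromosome 12 cluster the 2 with the smallest p were Acot3 and Acot4. Acot3, a peroxisomal enzyme in the mouse, ranged from 18 to 91.8 in KO TAC and 17.8 to 273.6 in KO sham, against 178.8 to 423.8 in WT TAC and 151.2 to 233.1 in WT sham, for a genotype average of -1.77 ± 0.50 that did not pass (limma adjusted p = 0.249). Acot4, whose mouse enzyme acts on short dicarboxylic acyl-CoAs, was dim and had the opposite sign in sham hearts, with 42.9 to 136.6 in KO sham and 5.6 to 28 in WT sham (2.01 ± 0.52, adjusted p = 0.331).

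Of the listed genes of acyl-CoA synthesis, coenzyme A metabolism and acyl-CoA binding, none that was measured was called either. Among acyl-CoA synthetases, which make the substrate of the thioesterases, 15 of 17 had a probe set and 0 were called for genotype (median 0.00). Of these 15, 6 were among the dimmest 40%. Acsl1 and Acss3 had no probe set of their own, so whether they differ with genotype was not tested. Among genes of coenzyme A metabolism, Nudt7, Nudt8 and Nudt19 included, and of acyl-CoA binding, all 15 had a probe set and 0 were called (median 0.05). Dbi, the acyl-CoA-binding protein, came nearest by p, at -0.34 ± 0.09 (limma adjusted p = 0.176).

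Fatty acid oxidation in mitochondria was measured by 19 genes, of which 12 fell in KO and 0 rose in the genotype average, with a median of -0.50 beside -0.01 for all probe sets. Within sham hearts 5 fell, and within TAC hearts 11. The matrix enzyme gene Decr1, which handles unsaturated acyl chains, gave -1.59 ± 0.10, the carnitine carrier Slc25a20 -1.49 ± 0.18 and the carnitine acyltransferase Cpt2 -1.29 ± 0.09. In other known PPARalpha targets, 6 of 14 measured fell and 0 rose, led by the lipid droplet coat gene Plin5 (-2.62 ± 0.14), the uncoupling protein gene Ucp3 (-1.42 ± 0.22) and the pyruvate dehydrogenase kinase gene Pdk4 (-1.03 ± 0.16). Both lists were drawn up from known biology with earlier results of these arrays in view, and their counts are a description.

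**Figure D5:**
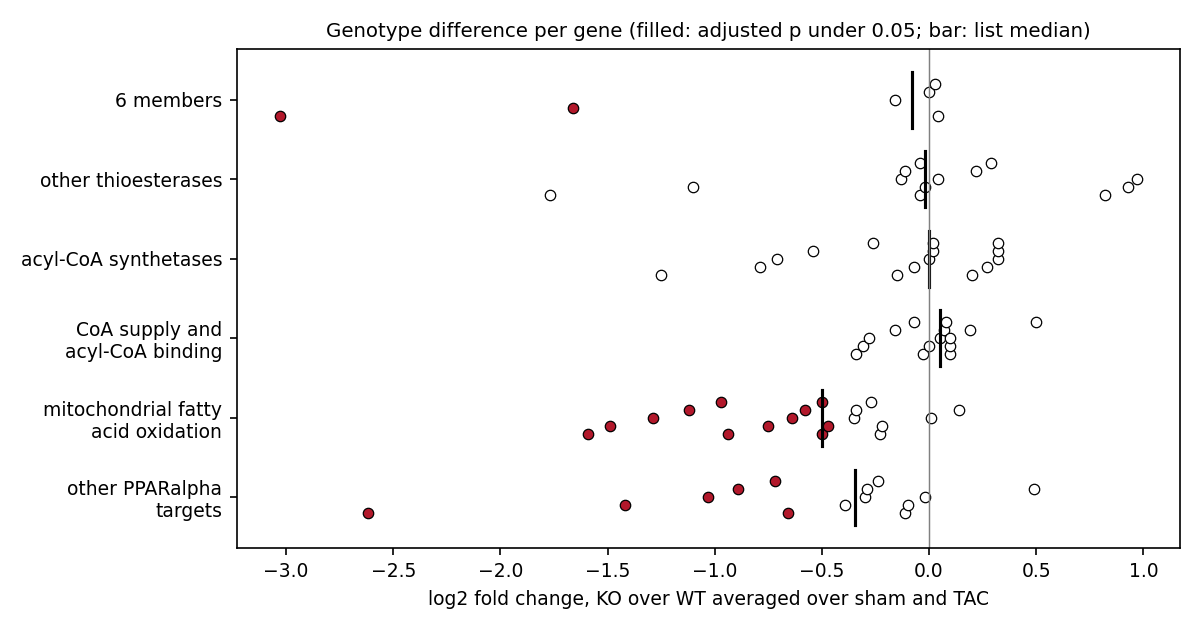
Log2 fold change of KO over WT, averaged over sham and TAC, for each gene of the members and of 5 lists, 1 point per gene at its brightest probe set, filled where the adjusted p was under 0.05, with a bar at each list's median. Filled points appear for Acot1 and Acot2 and in the lists of oxidation and other PPARalpha target genes, and none in the other thioesterases, synthetases or coenzyme A genes.

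The genes most like each member over the 16 arrays were taken by Pearson correlation of log2 signal among 12974 genes. For the bright Acot2 set they were the oxidation genes Ech1 (r = 0.945), Acaa2 (0.935), Hadhb (0.922) and Eci1 (0.921), with the noncoding RNA Norad (0.934) among them. With group means removed the values were 0.631 for Ech1, 0.541 for Acaa2, 0.435 for Hadhb, 0.574 for Eci1 and 0.858 for Norad. Acot1 was most like Acaa2 (0.932), the peroxisome division gene Pex11a (0.917), Apbb1 (0.913), the muscle fructose bisphosphatase Fbp2 (0.91) and Cep128 (0.907). With group means removed these were 0.469 for Acaa2, 0.426 for Pex11a, 0.221 for Apbb1, 0.504 for Fbp2 and 0.565 for Cep128. Acot13 came closest to the heart fatty acid-binding protein gene Fabp3 (0.869, and 0.614 within groups) and to the respiratory complex III subunit Uqcrfs1 (0.841, and 0.736 within groups). Acot9 came closest to Anxa1 (0.834), Acot7 to Dhrs11 (0.907) and Acot8 to Fyb (0.805), with 0.768, 0.813 and 0.775 within groups, in that order. Such values are the highest of many and are given without a test.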

How the data were processed

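Biotin-labelled total RNA of the left ventricle was hybridised to Affymetrix Mouse 430 2.0 arrays, per the labels. Per the submitters' processing notes the authors used GCOS 1.4, and what they deposited is signal intensity on a linear scale, with every array at 1 trimmed mean. No label or header names the algorithm settings, detection calls or a genome build. Of 45101 probe sets, 64 were controls, 34945 carried 1 gene symbol in the platform annotation, 932 several and 9160 none. Values were floored at 11.9, their 10th percentile, and log2 was taken without further normalization. limma 3.58.1 (R 4.3.3) fitted 45037 probe sets with 1 coefficient per group, no filter on dim probe sets and Benjamini-Hochberg adjustment at 0.05, which was tested on simulated data. Groups came from sample titles. Named genes were the members, the 5 genes most like each, and, of each list, up to 4 called genes with the largest change or the 2 with the smallest p. The members and lists were chosen with earlier results of these data known. Single values were compared with exact permutation tests. The alternatives tried were other floors, normalizations, filters, probe set choices, a replicate block, spike-in corrections and left-out arrays. Same-numbered arrays of different groups did not deviate together: of 24 pairs, 0 correlated above 0.1 (r from -0.046 to 0.043). The number of arrays limits the precision.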

Additional observations from a re-analysis of the deposited data

Results flagged for a closer look

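In 36 sets of 4 arrays (9 probe sets in 4 groups) 2 held an outlying array by Dixon's ratio, where chance gives about 1 in 20. KO TAC replicate 3 had an Acot2 signal of 642.9 in the bright probe set, against 1723.2 or more in the other 3 KO TAC arrays. It was also the array with the lowest spike-in signal. KO sham replicate 2 had an Acot8 signal of 513.4, against 350 or less in the other KO sham arrays.

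For the bright Acot2 set, every KO TAC array lay below the KO sham mean and every WT TAC array above the WT sham mean. The difference between the 2 responses was -1.2 on the log2 scale and did not pass the interaction test (limma adjusted p = 0.626).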

How the results depend on the processing

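The genotype average was called lower in KO for Acot2 in 15 of 15 alternatives that gave a value (-1.69 to -1.14). It was also called lower for Acot1 in 13 of 13 (-3.14 to -2.51) and for the shared set in 12 of 12 (-1.94 to -1.76). All 3 were called without each of the 16 arrays in turn. The -1.14 is the mean of both Acot2 sets, and the other Acot2 values are of the bright set. Fitting only the arrays compared uses all 16 arrays for this average, so that alternative repeats the main fit. With 1 probe set per gene and dim genes left out, 5 member sets remained, without Acot1 and the shared sets, and 1 (Acot2) was called in place of 3, also for KO TAC over WT TAC. Between the TAC groups the call held in 13 of 15 alternatives for Acot2, 10 of 12 for the shared set and 10 of 13 for Acot1. The count was 0 with only the arrays compared and 0 with the spike-in mean as a covariate (limma adjusted p = 0.151 for Acot2, 0.165 for the shared set, 0.2 for Acot1). The fold changes were the same with only the arrays compared and -1.86, -1.62 and -3.49 with the covariate. Between the sham groups the main count of 1 became 2 with the floor at the 25th percentile, 2 with a trended and robust fit and 2 when the 3 arrays with extreme spike-ins were left out. It was 0 with 1 probe set per gene, 0 with the mean of a gene's sets and 0 without sets marked as shared. These last 3 settings leave out the set shared by Acot1 and Acot2, the one called as fitted. That set was called in 12 of 12 alternatives that kept it. For KO TAC over KO sham, leaving out 1 array gave 0 to 1. With the replicate number as a block (replicate block), Acot1 kept its calls (adjusted p = 0.0101 averaged, 0.0444 in TAC), and no member call changed; 6 of 16 arrays correlated best with their own number. Of 1588 other values, 79 changed sign, all with a 95% interval that included 0, and 0 called values were reversed. Over all probe sets, leaving aside the fits without 1 array, calls ranged from 118 to 406 for the genotype average (187 as fitted), 32 to 132 in sham (50), 33 to 520 in TAC (114), 14 to 334 for TAC averaged (71), 0 to 5 in WT (0, and up to 12 with 1 array left out), 27 to 427 in KO (84) and 0 to 20 for the interaction (1). Centring each array on its median moved the median of all probe sets in KO TAC over WT TAC to 0.14 and its split to 42 higher and 30 lower (35 and 79 as fitted), and the split in KO TAC over KO sham to 67 higher and 7 lower (60 and 24). The causes were not tested.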
